A study of Mus musculus with 10 samples.

Results

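The genes described here serve protein folding in the endoplasmic reticulum (ER) and the unfolded protein response, the signalling that adjusts that folding capacity. They are 32 of the 13932 genes of the deposited count table, taken by symbol from a list of ER chaperones, stress sensors, members of the ATF4 branch, and genes of ER-associated degradation and of protein translocation. All 32 were found, and all 32 were among the 12477 genes with enough counts to be tested. RNA came from live CD45- EpCAM+ epithelial cells sorted from the ileum, the last segment of the small intestine, with 1 library per mouse. All 10 mice carried H2-Ab1 fl/fl, in which the gene for the beta chain of the MHC class II molecule I-A is flanked by loxP sites. The 5 dIEC mice were H2-Ab1 fl/fl; Villin:Cre+ (mice 1, 3 and 5 male, 7 and 9 female), so that Cre recombinase, driven by the Villin promoter in intestinal epithelium, removes the flanked sequence there. The 5 WT mice were H2-Ab1 fl/fl; Villin:Cre- (mice 2, 4 and 6 male, 8 and 10 female). No mouse had Cre without the flanked gene, so effects of Cre and of the deletion cannot be told apart. The sources used here give neither strain background nor age. The comparison asks whether the folding machinery of the epithelium differs when its cells lack MHC class II.

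Secreted and membrane proteins enter the ER through the Sec61 channel and fold with the help of HSP70 and HSP90 family chaperones, lectin chaperones that bind sugar chains, and disulfide isomerases. When unfolded proteins accumulate, IRE1, PERK and ATF6 in the ER membrane signal to the nucleus. IRE1 splices the Xbp1 mRNA and ATF6 is cut to a transcription factor, and both raise chaperone and degradation genes. PERK slows translation while the mRNA of the transcription factor ATF4 is translated more, and ATF4 raises genes of amino acid supply and, under lasting stress, Ddit3. In the gut, goblet and Paneth cells carry a heavy secretory load, and enterocytes make lipoproteins in the ER. Counts per gene do not separate spliced from unspliced Xbp1 mRNA, and ATF4 is controlled mainly at translation, so these data show mRNA levels and not the state of the pathway.

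The libraries held 9174101 to 13484363 counts assigned to genes. H2-Ab1 counts ran from 754 to 4430 in WT and from 9 to 49 in dIEC, so each library matched its label. The labelled sort was checked against markers. Ptprc, the gene of CD45, was at or below 0.797 CPM. Of the other leukocyte markers examined, Csf1r reached at most 1.26 CPM, but Cd68 lay at 1.96 to 6.48 and Itgam at 7.69 to 17.9 CPM, and the 4 summed to between 12.4 and 21.6 CPM. Of the stromal markers Col3a1 reached at most 0.842 and Pecam1 at most 1.49 CPM, while 13 markers of mature enterocytes summed to between 32094 and 96840 CPM. Plasma cells, which are rich in ER chaperones, left little trace: Igha was at most 3.05 CPM and Igkc at most 2.07 CPM. Sdc1, the third plasma cell marker examined, is also made by epithelium and lay between 86.4 and 159 CPM. The other 7 plasma cell, 8 leukocyte and 8 stromal markers of the lists were not analysed here. The libraries also differed in markers of proliferating and goblet cells. The proliferation score, the mean log2 CPM of 23 cell cycle genes such as Mki67 and Top2a, ran from 2.82 in dIEC 7 to 5.51 in dIEC 9, and the summed CPM of 12 goblet cell markers from 5242 in WT 10 to 48191 in WT 4. Bulk libraries cannot tell fewer cells of a type from less RNA per cell. Among the folding genes 1 library stood apart: WT 8, a female, had the highest level of 20 of the 32, against 18.5% of all tested genes; the plot of fold changes gives the genotype value of every member with and without it. CPM are counts per library total, brought to a common total and scaled by the trimmed mean of M values (TMM), and library values are given in the order WT 2, 4, 6, 8 and 10, and dIEC 1, 3, 5, 7 and 9.

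Levels between genes were compared as mean CPM over the 10 libraries per kilobase of annotated exon. P4hb, the gene of protein disulfide isomerase, which is also a subunit of the triglyceride transfer protein that loads lipoproteins, was by far the highest at 870.0 CPM per kb. The next were Calr (calreticulin) at 194, Hspa5 (BiP, the main HSP70 of the ER) at 167, Canx (calnexin) at 164, Atf4 at 121, Hsp90b1 (GRP94, the HSP90 of the ER) at 119 and Pdia3 at 118 CPM per kb. P4hb was thus above every other member in this scale, while Hspa5 and Canx, and likewise Atf4, Hsp90b1 and Pdia3, lay closer to each other than the spread between libraries. The transcription factor Xbp1 was at 61.7 CPM per kb, and the sensors were far lower: Eif2ak3 (PERK) at 10.3, Atf6 at 9.75, Ern2 (IRE1 beta) at 8.05 and Ern1 (IRE1 alpha) at 7.03. The lowest members belonged to the ATF4 branch. Asns, the asparagine synthetase, was at 6.89, the pseudokinase gene Trib3 at 4.10 and Chac1, whose product degrades glutathione, at 0.782 CPM per kb, with as few as 7 counts in a library.

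The promoters of these genes were examined for some of the sequence elements that the response is known to use. Elements other than those named here were not searched. RefSeq promoters (build GRCm38.p6, 250 bases before to 50 bases after the start of transcription) were at hand for 28 of the 32 members. The ER stress element, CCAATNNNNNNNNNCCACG, is bound by NF-Y at its CCAAT and by ATF6 or XBP1 at its CCACG. Searched on both strands, it was present in 8 of the 28 promoters (28.6%), against 0.119% of the 32851 promoters of the table. The 9 copies are printed because most lie in chaperone genes: the element was in 4 of 7 promoters of ER chaperones, 2 of 2 of lectin chaperones and 1 of 4 of disulfide isomerases. Among the 15 other members' promoters it was in 1, that of the degradation gene Syvn1. Dnajb9, Dnajb11, Sdf2l1, P4hb, Pdia3 and Pdia4 had no match to the ER stress element in this window. Each is written 5′ to 3′ on the strand that matches, with CCAAT and CCACG in capitals.
Hspa5: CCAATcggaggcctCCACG
Hsp90b1, element at -212: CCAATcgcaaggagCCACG
Hsp90b1, element at -107: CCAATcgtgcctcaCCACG
Dnajc3: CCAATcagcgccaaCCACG
Creld2: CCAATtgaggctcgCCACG
Calr: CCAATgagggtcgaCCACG
Canx: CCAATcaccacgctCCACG
Pdia6: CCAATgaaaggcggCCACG
Syvn1: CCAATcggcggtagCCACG
Positions count from the first transcribed base, which is 0. The Hspa5 copy spans bases -65 to -47, the Hsp90b1 copies -212 to -194 and, on the reverse strand, -107 to -89, and the Syvn1 copy -44 to -26. The 9 bases between the capitals differ in every copy. The short CCACG alone, which is part of the element, was in 22 of the 28 promoters (78.6%) against 32.8% of all. The unfolded protein response element TGACGTGG, which contains CCACG read on the other strand, was in 0 of the 28 and in 0.676% of all promoters. The C/EBP-ATF element TGATGNAA, bound by ATF4 with C/EBP partners, was in 4 (14.3%) against 3.97% of all: Chac1, Trib3 and Asns of the ATF4 branch, and Herpud1. Each count is a match of letters in this window, not a measured binding site. The members were chosen as genes of this response and the elements are known from it, so these shares describe the list and test nothing.

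The promoters of 4 members are printed whole, in capitals where an element matches, because the results turn on these genes or contrast with them. Hspa5 and Hsp90b1 varied together, and Syvn1 shares their element but not their pattern. Asns is printed as a gene of the ATF4 branch that holds the C/EBP-ATF element, not as typical of that branch in its levels. Sequences run 5′ to 3′ on the strand of the gene, so that an element on the reverse strand appears as its reverse complement, CGTGG before ATTGG for the ER stress element.
Hspa5, chr2:34771840-34772139, plus strand: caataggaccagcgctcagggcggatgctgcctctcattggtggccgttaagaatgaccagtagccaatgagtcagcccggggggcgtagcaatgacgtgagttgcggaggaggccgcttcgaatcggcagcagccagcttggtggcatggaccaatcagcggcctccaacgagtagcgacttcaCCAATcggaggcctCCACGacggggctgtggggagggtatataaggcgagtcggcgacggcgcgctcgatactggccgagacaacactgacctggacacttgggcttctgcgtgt
Hsp90b1, chr10:86705395-86705694, minus strand: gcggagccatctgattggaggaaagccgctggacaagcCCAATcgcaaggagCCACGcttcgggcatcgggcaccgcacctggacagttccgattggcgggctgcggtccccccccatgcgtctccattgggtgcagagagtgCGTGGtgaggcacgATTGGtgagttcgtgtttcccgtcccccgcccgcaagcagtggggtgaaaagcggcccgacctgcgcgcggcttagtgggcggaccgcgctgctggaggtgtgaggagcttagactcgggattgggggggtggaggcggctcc
Syvn1, chr19:6046326-6046625, plus strand: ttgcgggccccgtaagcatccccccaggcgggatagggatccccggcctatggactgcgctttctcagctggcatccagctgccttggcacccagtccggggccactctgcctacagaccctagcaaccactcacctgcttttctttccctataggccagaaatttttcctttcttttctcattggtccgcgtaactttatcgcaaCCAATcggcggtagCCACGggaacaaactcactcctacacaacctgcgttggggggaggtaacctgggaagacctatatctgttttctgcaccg
Asns, chr6:7693160-7693459, minus strand: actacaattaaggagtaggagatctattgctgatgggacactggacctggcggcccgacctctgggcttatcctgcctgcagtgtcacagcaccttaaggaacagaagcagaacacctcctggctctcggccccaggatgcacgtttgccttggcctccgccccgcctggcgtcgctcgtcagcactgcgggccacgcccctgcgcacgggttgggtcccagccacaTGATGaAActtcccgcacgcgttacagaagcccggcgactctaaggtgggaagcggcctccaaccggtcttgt

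No member passed the test between dIEC and WT by edgeR's quasi-likelihood test with sex as a covariate. At a Benjamini-Hochberg adjusted p under 0.05 over all tested genes, 0 of 32 members were called (lowest adjusted p 0.999891), against 0.016% of all tested genes. In this fit, members with an unadjusted p under 0.05 numbered 0, against 2.85% of all genes. DESeq2 called 0 members (background 0.0321%), with 2 at an unadjusted p under 0.05 (background 4.09%), and limma voom with sample weights called 0 (background 0.016%), with 15 at an unadjusted p under 0.05 (background 19.1%). The fitted values leaned one way, though, and most members were lower in dIEC. By count 26 of the 32 were lower in dIEC, where 47.4% of all genes were, and their median log2 fold change was -0.23 against 0.013 over all tested genes. Without WT 8, 28 of the 32 were lower and the median was -0.11. The lean thus kept its direction at a smaller size, though the share of all genes lower in that fit is not given here. With the proliferation score, the mean log2 CPM of the cell cycle genes, as a further covariate, 0 members were called (lowest adjusted p 0.104, background 0.0401%), but 16 had an unadjusted p under 0.05, against 16.8% of all genes, and all 16 were lower in dIEC. When WT 8 was also left out, 0 were called (lowest adjusted p 0.147, background 0.0395%) and 11 had an unadjusted p under 0.05, all lower, against 13.1% of genes. Of the 16, 7 are ER chaperones, 4 disulfide isomerases and 3 translocation genes, and the other two are Calr and Xbp1. Markers of tuft cells, rare chemosensory cells of the epithelium, moved with the members: 8 of 8 examined were lower in dIEC (median log2 fold change -0.38, 0 called), with sums of 24.3 to 69.3 CPM in WT and 24.9 to 54.2 CPM in dIEC. The mean log2 CPM of these markers and that of the chaperones and disulfide isomerases both were highest in WT 8, next in dIEC 9 and lowest in WT 4. Their part in the lean was not tested, and 2 further tuft markers were not analysed here. No member had groups that did not overlap in CPM, against 0.321% of genes. A p that misses the threshold does not show that the level was equal, and smaller differences can go unseen among 5 mice per group.

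**Figure D1:**
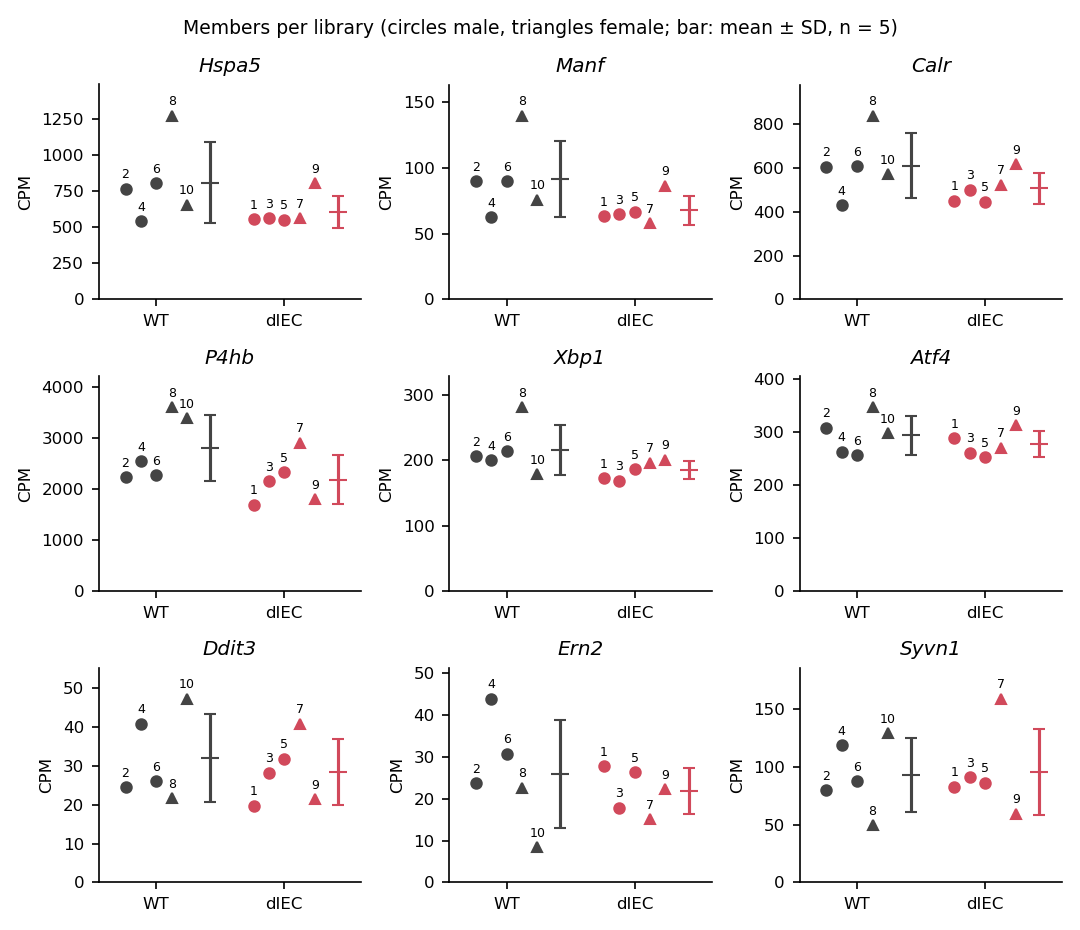
CPM (vertical axes, linear, from 0) of 9 members in each library, grouped as WT and dIEC (horizontal axes); circles are males, triangles females, and the bar with its error is the mean ± SD of 5 mice. For Hspa5 the point of WT 8 lies at 1270.2 CPM, above all other libraries, and in each panel the groups overlap.

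The 9 ER chaperones and cofactors all had fitted values below 0, with a median of -0.29, except that Dnajb9 was above 0 by limma voom. Hspa5 (ENSMUSG00000026864, chr2:34771970-34777547, plus strand, coordinates of GRCm38 in GENCODE M21 here and for the other genes) was at 766, 540.4, 804, 1270.2 and 655 CPM in WT and at 556, 562, 552, 561 and 804 CPM in dIEC. WT 8 was the highest, 4 of the 5 dIEC libraries lay within 10 CPM of each other, and WT 4 lay below all of them. The Hspa5 means were 807 ± 279 CPM in WT and 607 ± 110.3 CPM in dIEC (SD, n = 5 each). Its log2 fold change was -0.40 (SE 0.21), and -0.21 without WT 8. Manf (ENSMUSG00000032575, chr9:106838312-106891979, minus strand), whose product binds BiP in the ER and can be secreted, was at 89.8, 62.3, 89.9, 139 and 75.8 CPM in WT and at 63.2, 64.7, 66.6, 58.0 and 86.5 CPM in dIEC. The order of its libraries was close to that of Hspa5, with WT 8 on top and WT 4 and dIEC 7 at the bottom. Its log2 fold change of -0.42 (SE 0.19) was the furthest from 0 of all members, and -0.23 without WT 8. On the other strand 4.1% of the exon bases of Manf overlap Dcaf1 and 4.7% overlap 4930524O07Rik, and whether the counting used strand is not given in the sources used here. Sdf2l1 (ENSMUSG00000022769, chr16:17130138-17132383, minus strand), whose product works with the cochaperone Dnajb11, was at 29.6, 17.8, 31.1, 46.8 and 32.4 CPM in WT and at 22.8, 24.8, 22.3, 28.6 and 29.5 CPM in dIEC. WT held both the lowest and the highest of the 10, and the log2 fold change was -0.28 (SE 0.17), and -0.16 without WT 8. Of the other chaperones, Creld2, an ER protein induced by stress, had -0.38, and Hyou1, a large HSP70 relative that exchanges BiP's nucleotide, -0.32. Hsp90b1 had -0.29 (-0.12 without WT 8), with 10.3% of its exon bases shared with a pseudogene on the other strand. Of the J-domain cochaperones that steer BiP, Dnajb11 had -0.26, Dnajc3 -0.19 and Dnajb9 -0.028 on the log2 scale, and without WT 8 -0.10, -0.076 and -0.074. The value of Hyou1 did not rest on WT 8, being -0.33 without it.

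The lectin chaperones hold glycoproteins until they are folded, and both were lower in dIEC without passing the test. Calr (ENSMUSG00000003814, chr8:84841850-84846934, minus strand) was at 606, 429.9, 607, 838 and 571 CPM in WT and at 450.5, 499.7, 445, 523 and 618 CPM in dIEC. Apart from WT 8 the groups covered nearly the same range, and the log2 fold change was -0.26 (SE 0.17), or -0.16 without WT 8. Canx ran from 557 to 1337 CPM over the 10 libraries, with a log2 fold change of -0.24 (SE 0.23) and -0.032 without WT 8, so that its difference rested on that library.

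The 4 disulfide isomerases, which form and reshuffle disulfide bonds, had the lowest median of the role groups at -0.34. P4hb (ENSMUSG00000025130, chr11:120560298-120573253, minus strand) was at 2224, 2544, 2269, 3596 and 3382 CPM in WT and at 1692, 2152, 2329, 2901 and 1801 CPM in dIEC. It differed from the chaperones in its order: WT 8, WT 10 and dIEC 7, all female, were the highest, while the female dIEC 9 was among the lowest. The P4hb means were 2803 ± 643 CPM in WT and 2175 ± 481 CPM in dIEC (SD, n = 5 each). The log2 fold change was -0.34 (SE 0.20) and -0.29 without WT 8. Pdia3, which works with calnexin and calreticulin, had -0.24, Pdia4 -0.34 and Pdia6 -0.40 on the log2 scale, each with WT 8 as its highest library. Without WT 8 these were -0.10, -0.15 and -0.20.

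**Figure D2:**
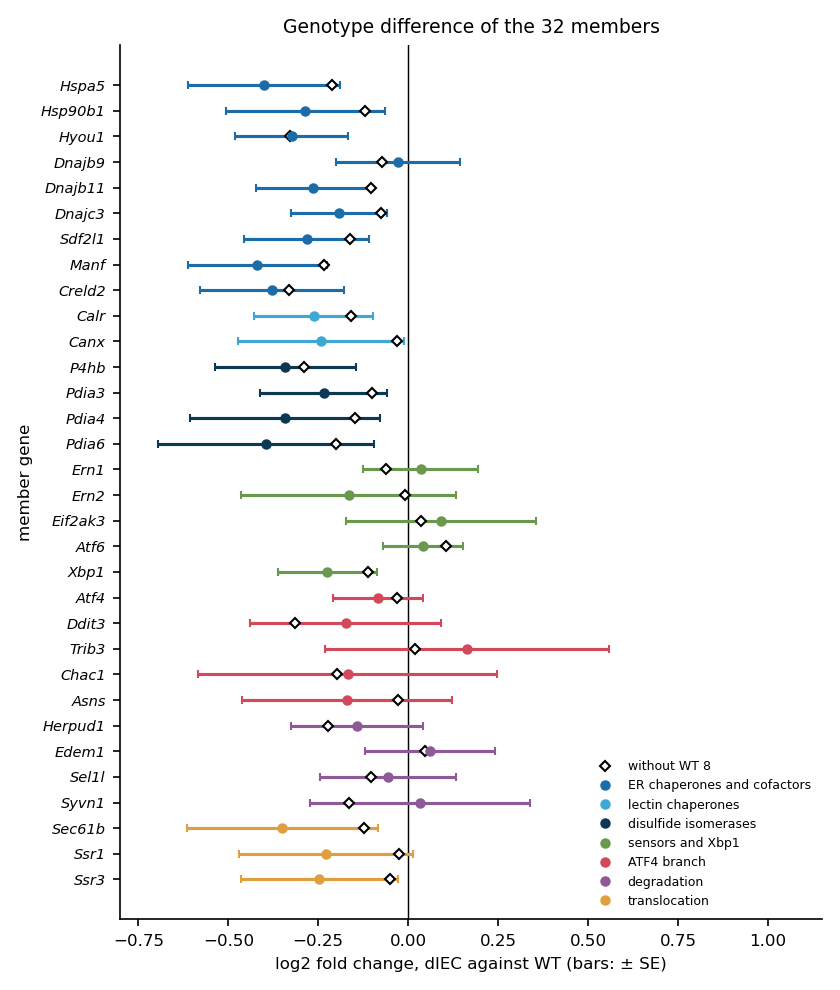
Fitted log2 fold change, dIEC minus WT (horizontal axis), of the 32 members (rows, grouped by role), with bars of ± 1 SE; open diamonds give the value without WT 8. The 15 chaperones, lectin chaperones and disulfide isomerases lie below 0 and move closer to 0 without WT 8 except Hyou1 and Dnajb9, and the sensors lie around 0.

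The sensors did not lean one way: of the 5 genes, 2 were lower and 3 higher, with a median of 0.035. Xbp1 (ENSMUSG00000020484, chr11:5520659-5525893, plus strand) was at 206, 199.9, 213, 281 and 179 CPM in WT and at 172, 168, 186, 196 and 201 CPM in dIEC. WT 8 was again the highest and the other 9 libraries lay between 168 and 213 CPM. Its log2 fold change was -0.23 (SE 0.14), and -0.11 without WT 8. Ern2 (ENSMUSG00000030866, chr7:122169893-122186207, minus strand), the IRE1 of mucosal epithelium and mainly of goblet cells, was at 23.7, 43.9, 30.7, 22.6 and 8.42 CPM in WT and at 27.7, 17.8, 26.4, 15.05 and 22.2 CPM in dIEC. WT held both its highest library, WT 4, and its lowest, WT 10, and the log2 fold change was -0.17 (SE 0.30), or -0.0079 without WT 8. Ern1 had 0.035 (SE 0.16), Eif2ak3 0.091 (SE 0.26) and Atf6 0.041 (SE 0.11) on the log2 scale, and without WT 8 -0.063, 0.036 and 0.10. Atf6 varied least of all members, by 1.28-fold from its lowest to its highest library, and Ern2 the most, by 5.21-fold.

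In the ATF4 branch 4 of 5 genes were lower in dIEC, with a median of -0.17. Atf4 (ENSMUSG00000042406, chr15:80255184-80257541, plus strand) was at 307, 262, 256, 346 and 297 CPM in WT and at 288, 260.0, 252, 269.8 and 312 CPM in dIEC. The groups overlapped over most of their range, and the log2 fold change was -0.084 (SE 0.13), and -0.031 without WT 8. Ddit3 (ENSMUSG00000025408, chr10:127290774-127296288, plus strand), the gene of the stress factor CHOP, was at 24.5, 40.8, 26.0, 21.7 and 47.2 CPM in WT and at 19.8, 28.2, 31.8, 40.8 and 21.4 CPM in dIEC. Here WT 8 was among the lowest and WT 10, WT 4 and dIEC 7 were the highest, with a log2 fold change of -0.17 (SE 0.27) and -0.31 without WT 8. Asns had -0.17 (SE 0.29), Trib3 0.16 (SE 0.40) and Chac1 -0.17 (SE 0.42) on the log2 scale, the last from 7 or more counts per library. Without WT 8 these were -0.029, 0.019 and -0.20.

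Degradation and translocation genes differed from each other in their lean. Of the 4 degradation genes, whose products extract misfolded proteins from the ER, 2 were lower and 2 higher, with a median of -0.012. Herpud1 (ENSMUSG00000031770, chr8:94386438-94395377, plus strand), a membrane adaptor of the retrotranslocation complex, was at 94.2, 157, 113, 85.1 and 122 CPM in WT and at 94.3, 97.5, 120.5, 120.3 and 84.0 CPM in dIEC. Its highest library was WT 4 and WT 8 was among the lowest, with a log2 fold change of -0.14 (SE 0.18), or -0.22 without WT 8. Syvn1 (HRD1, the ubiquitin ligase of the complex) had 0.033, its partner Sel1l -0.056 and Edem1, which hands over misfolded glycoproteins, 0.061 on the log2 scale, and without WT 8 -0.16, -0.10 and 0.047. All 3 translocation genes were lower, with a median of -0.25. Sec61b (ENSMUSG00000053317, chr4:47474658-47483242, plus strand), a subunit of the Sec61 channel, was at 29.3, 17.3, 25.4, 37.4 and 17.6 CPM in WT and at 21.4, 20.5, 18.9, 11.8 and 26.8 CPM in dIEC, and its log2 fold change was -0.35 (SE 0.27), or -0.12 without WT 8. Ssr3 (ENSMUSG00000027828, chr3:65379655-65392623, minus strand), of the translocon-associated complex, was at 208, 158, 188, 289 and 153 CPM in WT and at 184, 162, 158, 116 and 217 CPM in dIEC, with a log2 fold change of -0.25 (SE 0.22). In both, WT 8 was the highest and dIEC 7 the lowest library. Ssr1, of the same complex as Ssr3, had -0.23, and without WT 8 the values of Ssr1 and Ssr3 were -0.025 and -0.051.

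The chaperone branch, here the 15 chaperones, lectin chaperones and disulfide isomerases, was then set against the 5 genes of the ATF4 branch within each library. All 15 had a genotype value below 0, with a median of -0.29, and all 15 remained below 0 without WT 8, with a median of -0.16. Among males alone 14 of 15 were below 0 (median -0.24) and among females alone 15 of 15 (median -0.35). No share over all genes is given for these subsets of libraries. The mean log2 CPM of the chaperone branch was 7.72 ± 0.34 in WT and 7.45 ± 0.17 in dIEC (SD, n = 5 each). The ATF4 branch was at 4.17 ± 0.23 in WT and 4.09 ± 0.22 in dIEC. Within a library the chaperone branch stood above the ATF4 branch by 3.59, 2.71, 3.67, 4.21 and 3.53 log2 units in WT and by 3.41, 3.41, 3.07, 3.05 and 3.85 in dIEC. WT held both the smallest gap, in WT 4, and the largest, in WT 8, and the groups overlapped. The mean gap was 3.54 ± 0.54 in WT and 3.36 ± 0.33 in dIEC, a difference of -0.18, which is smaller than either SD. It was -0.030 in males and -0.41 in females, and without WT 8 it was -0.018. From summed CPM, in which abundant genes weigh most, the gap was 4.28 ± 0.23 in WT and 4.07 ± 0.12 in dIEC. Its difference of -0.21 was larger than the SD in dIEC and smaller than that in WT, and the groups overlapped. By mean log2 CPM these libraries thus show no shift of one branch against the other larger than the spread between mice. That mean weighs all genes of a branch alike, including Chac1 with as few as 7 counts in a library.

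**Figure D3:**
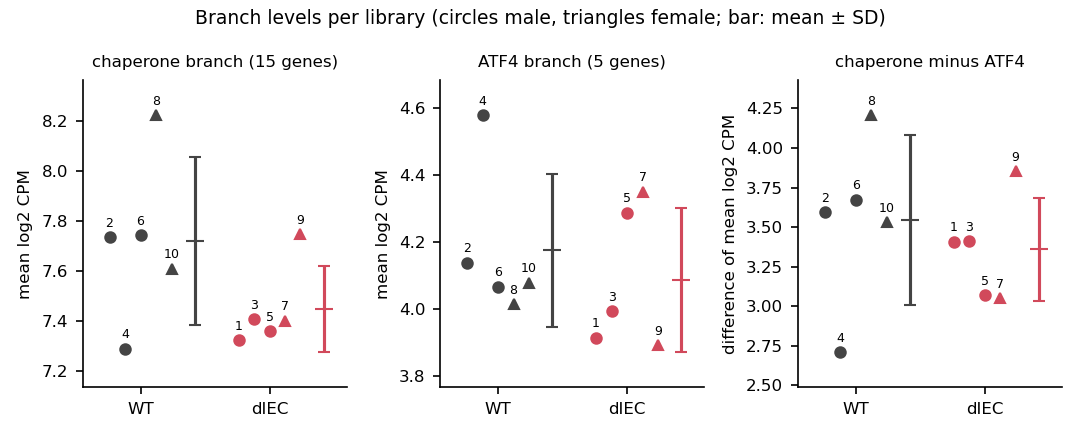
Mean log2 CPM of the chaperone branch (15 genes) and of the ATF4 branch (5 genes) and their difference (vertical axes) in each library of WT and dIEC; circles are males, triangles females, and bars are mean ± SD of 5 mice. The difference runs from 2.71 in WT 4 to 4.21 in WT 8, and the dIEC libraries lie between 3.05 and 3.85.

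Sex was the other labelled factor, with 6 males and 4 females. By edgeR with genotype as a covariate 0 of 32 members were called (lowest adjusted p 0.999635), against 0.0401% of all genes. At an unadjusted p under 0.05 there were 3 members, Sdf2l1, Dnajb11 and Ern2, against 4.44% of all genes. DESeq2 called 0 (background 0.104%), with 4 at an unadjusted p under 0.05 (background 5.25%), and limma voom called 0 (background 0.0481%), with 5 (background 19%). Chaperones and disulfide isomerases made up most of the members that were higher in females. The fitted value was higher in females for 25 of the 32, where 58.4% of all genes were, with a median of 0.17 against 0.040 over all genes. Without WT 8 it was higher for 21, with a median of 0.036, and the share of all genes in that fit is not given here. Sdf2l1 was at 24.7 ± 4.94 CPM in males (SD, n = 6) and 34.3 ± 8.48 CPM in females (SD, n = 4). The female libraries spread more widely than the male ones, with WT 8 on top. The log2 difference of 0.46 (SE 0.18) was 0.27 (SE 0.19) without WT 8. Dnajb11, whose product brings unfolded clients to BiP, was at 96.1 ± 11.1 CPM in males and 127 ± 37.8 CPM in females, a log2 difference of 0.39 (SE 0.16), or 0.15 without WT 8. Ern2 went the other way, at 28.4 ± 8.77 CPM in males and 17.1 ± 6.73 CPM in females, with a log2 difference of -0.71 (SE 0.31) and -0.91 without WT 8. Goblet cell markers moved with it: 11 of the 12 were lower in females, with a median log2 difference of -0.92 and 8 at an unadjusted p under 0.05, and their summed level was 13587 to 48191 CPM in WT males, 5242 and 5884 CPM in WT females, 12838 to 27933 CPM in dIEC males, and 7288 and 16586 CPM in dIEC females. With the mean log2 CPM of the goblet and Paneth markers as a covariate, the sex difference of Ern2 was 0.21 (SE 0.34). These markers themselves differed by sex, so sex and score cannot be told apart in this fit. The part of goblet cells in the Ern2 difference was not tested.

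The proliferation score overlapped between the sexes, at 3.54 to 5.04 in males and 2.82 to 5.51 in females, the females taking both extremes. With this score as a covariate, 6 members passed the threshold for sex, all higher in females, where 4.67% of all genes passed it. They were Hspa5 at a log2 difference of 0.51 (adjusted p = 0.0412), Hsp90b1 at 0.44 (0.0393), Dnajb11 at 0.49 (0.0416), Sdf2l1 at 0.56 (0.0452), Calr at 0.43 (0.0417) and Pdia4 at 0.49 (0.0430), each by edgeR with Benjamini-Hochberg adjustment over all genes. All 6 are chaperones, a lectin chaperone or a disulfide isomerase, and all 6 have WT 8 as their highest library. When WT 8 was also left out 0 members passed, against 0.853% of 12655 genes tested, with a lowest adjusted p of 0.124, and 20 of 32 were higher in females. The share of all genes higher in females in that fit is not given here. The log2 differences were then 0.30 for Hspa5, 0.28 for Hsp90b1, 0.27 for Dnajb11, 0.41 for Sdf2l1, 0.32 for Calr and 0.31 for Pdia4. All 6 kept their direction and none its call, and no other library was left out of this fit. Tuft cell markers moved with sex too, in the fit without a score: 8 of 8 were higher in females (median log2 difference 0.61, 0 called, 2 at an unadjusted p under 0.05). Lower in females were 13 of 13 Paneth markers (median -1.07, 0 called, 7 at an unadjusted p under 0.05, background 4.44%). The same held for 10 of 10 enteroendocrine, 8 of 8 crypt stem and 22 of 23 proliferation markers, with 0 called. Of the mature enterocyte markers 11 of 13 were higher in females. The part of these cell types in the members' values was not tested.

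Whether the genotype difference depended on sex was tested as a product term. None of the 32 members was called (0 by edgeR, lowest adjusted p 0.999997, background 0.00801%), and 0 had an unadjusted p under 0.05 by edgeR (background 2.1%). DESeq2 and limma voom called 0 and had 0 at an unadjusted p under 0.05, against 2.65% and 0.793% of all genes, with 0.144% and 0% of all genes called. The fitted product was below 0, a lower female than male genotype difference, for 20 of the 32 members against 45.2% of all genes. The members' median was -0.10 against 0.041 over all genes, and it changed sign when scaled by library size only (0.036), without WT 8 (0.27) or without dIEC 7 (0.015). Chac1 had the value furthest from 0, at 1.28 on the log2 scale (SE 0.79), from as few as 7 counts in a library. With 2 females per genotype this comparison has the least precision. Erythroid markers split the same cells of the design: the summed level of the 5 examined, with Hba-a1 and Hbb-bs among them, was 0 and 0.179 CPM in the WT females and 22.8 and 28.4 CPM in the dIEC females, against 13.2 to 24.1 CPM in all males, and their part in the members' values was not tested.

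**Figure D4:**
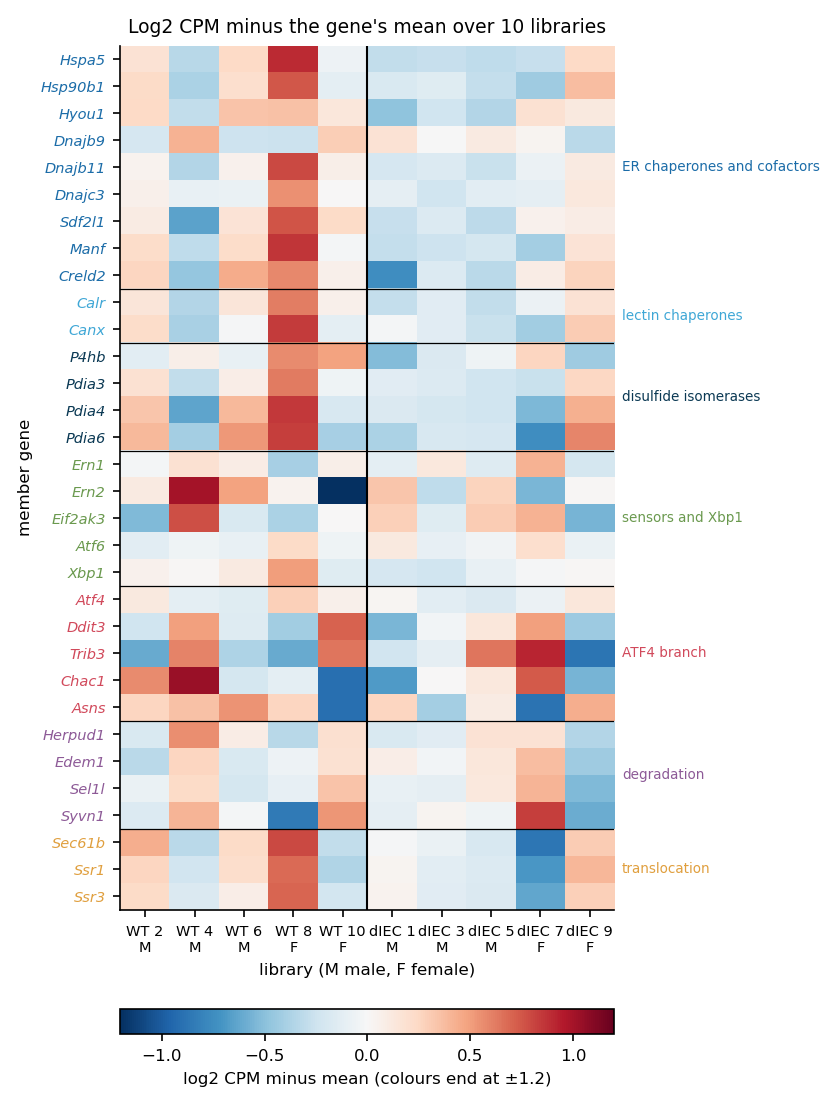
Log2 CPM of the 32 members (rows, by role) minus each gene's mean over the 10 libraries, in each library (columns, WT then dIEC); red is above and blue below the mean and the colours end at ± 1.2. WT 8 is the highest library for 14 of the 15 chaperone branch genes, while Ddit3, Trib3 and Syvn1 are among their lowest there.

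The members fell apart into genes that followed Hspa5 across the 10 libraries and genes that did not. With log2 CPM, 17 of the other 31 members had a positive Pearson r with Hspa5 at an adjusted p under 0.05 (permutation test with 100000 resamples, Benjamini-Hochberg over 12476 genes), against 7.99% of all genes. At a negative r there were 0 members, against 9.99% of genes. By Spearman's rho 0 members passed, the lowest adjusted p being 0.0555 for Calr, whose rho was 0.976. Manf had the highest r of all genes, at 0.987, and Pdia3 the next, at 0.977, each with an adjusted permutation p of 0.0122. Hsp90b1 was at 0.962, Calr at 0.961 and Dnajb11 at 0.951. Without the 2 libraries farthest from the median of Hspa5, WT 8 and WT 6, r was 0.952 for Manf, 0.973 for Pdia3 and 0.939 for Hsp90b1. Among the 6 males r was 0.990 for Manf and 0.935 for Pdia3. The calls did not hold without WT 8: then no member and no gene at all passed over 9 libraries (lowest adjusted permutation p 0.0839), while r stayed above 0 for 18 members, against 20 with it. All values of a library share its depth, scaling and mixture of cells, so r describes variation held in common and no more.

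By role, the median r with Hspa5 was 0.945 for the 2 lectin chaperones, 0.908 for the 4 disulfide isomerases, 0.893 for the other 8 ER chaperones and 0.827 for the 3 translocation genes. It was -0.0098 for the sensors with Xbp1, -0.245 for the ATF4 branch and -0.582 for the degradation genes, all 4 of which were negative. Exceptions stood within the groups. P4hb had r = 0.364, below the other isomerases, and Dnajb9 had -0.725 (adjusted permutation p 0.0607) where the other 7 chaperones were positive. Xbp1 and Atf4, the transcription factors, were at 0.877 and 0.764, whereas Ddit3 and Trib3, targets of ATF4, were at -0.492 and -0.670, Chac1 at -0.245 and Asns at 0.366. Without WT 8 and WT 6 the r of Xbp1 was 0.496. Syvn1, whose promoter holds an ER stress element as that of Hspa5 does, had r = -0.731 (adjusted permutation p 0.0631), while the other 6 genes with the element had r of 0.821 to 0.962. Chaperones and isomerases with no match to this element in the window reached similar values: Pdia3 0.977, Dnajb11 0.951, Pdia4 0.933 and Sdf2l1 0.872. Elements that were not searched may lie in those promoters. P4hb and Dnajb9, also without a match, were the exceptions given above. Outside the members, the named genes most like Hspa5 over the 10 libraries were Nudt19 (r = 0.977), Psmb5 (0.972), Sars (0.971), Ppib (0.971) and D17Wsu104e (0.969), each with an adjusted permutation p of 0.0122. In the lists of other pathway genes described below, Sars is among the ATF4 targets and Ppib among the ER folding genes.

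Sel1l, Edem1 and Syvn1 of the degradation genes, with Ddit3 and Trib3, were lower where the proliferation score was higher. Over the 10 libraries, r with the score passed the threshold with a negative sign for 5 members, against 20.3% of all genes, and with a positive sign for 4, against 19.5%, so that neither share is above the background. The negative members were Sel1l at -0.953 (adjusted permutation p 0.000612), Edem1 at -0.916, Trib3 at -0.898, Ddit3 at -0.852 and Syvn1 at -0.803. Without the 2 libraries farthest from the median score, dIEC 7 and WT 10, these were -0.917, -0.933, -0.831, -0.709 and -0.537. The positive ones were Ssr1 at 0.796, Sec61b at 0.770, Pdia6 at 0.762 and Asns at 0.736. Without the same 2 libraries they were 0.539, 0.530, 0.614 and 0.127, so that the relation of Asns rested on those libraries. By Spearman's rho 9 members passed, but no share over all genes is given for rho, so this count cannot be set against a background. The summed level of the proliferation genes ran from 335 to 1167 CPM in WT and from 253 to 1621 CPM in dIEC.

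**Figure D5:**
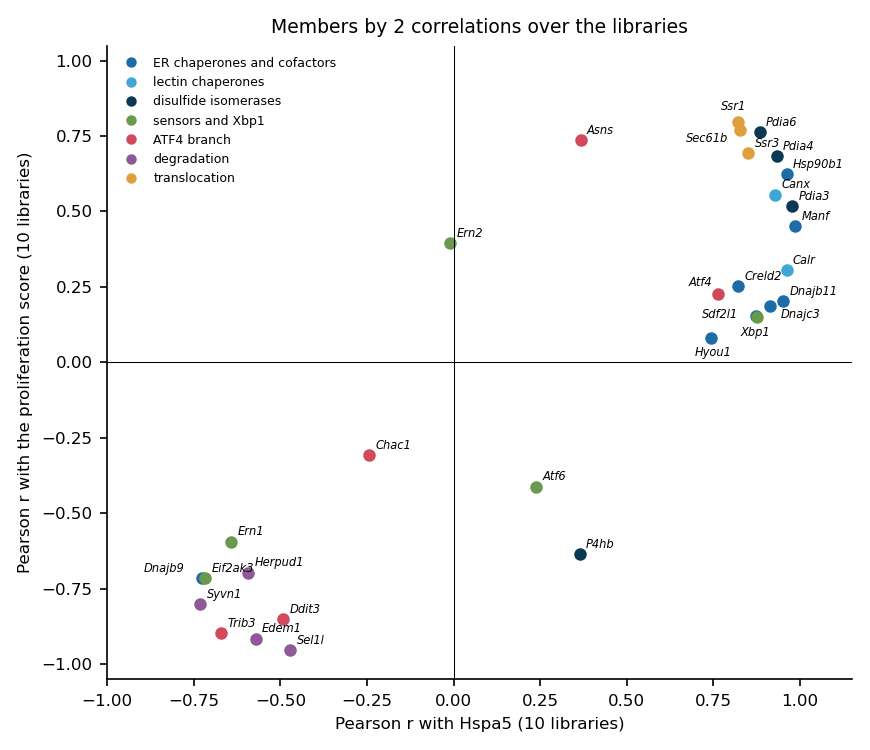
Pearson r over 10 libraries with Hspa5 (horizontal axis) and with the proliferation score (vertical axis) for the 31 members other than Hspa5, coloured by role. Manf, Pdia3, Hsp90b1 and Calr lie at the right edge with r above 0.96, and Sel1l, Edem1, Trib3, Ddit3 and Syvn1 at the lower left.

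Against the goblet score, the mean log2 CPM of the 12 goblet markers, 0 members passed by r (lowest adjusted permutation p 0.118). Ern2 had the highest value, with r = 0.896 and rho = 0.855, and r = 0.925 among the 6 males. Without WT 10 and WT 4, the libraries farthest from the median goblet score, r was 0.619. Ern2 was thus high where goblet markers were high, without passing the correction over all genes. Goblet marker sums were 5242 to 48191 CPM in WT and 7288 to 27933 CPM in dIEC, and Paneth marker sums 239 to 1774 and 268 to 1821 CPM.

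Other genes of the same pathways, in lists by role, gave 0 calls between genotypes by edgeR. Over all tested genes 0.016% were called, 2.85% had an unadjusted p under 0.05 and 47.4% were lower in dIEC. Of 23 tested genes of ER folding that are not members, 19 were lower in dIEC, with a median log2 fold change of -0.17 and 0 at an unadjusted p under 0.05. Fkbp2, an ER prolyl isomerase, had -0.27 (SE 0.13) and Cnpy2 -0.25 (SE 0.13). Of 17 other translocation genes 16 were lower, with a median of -0.22 and 1 at an unadjusted p under 0.05, which was Srprb, of the receptor for the signal recognition particle, at -0.30 (SE 0.13). Ssr4, the partner of Ssr1 and Ssr3, had -0.41 (SE 0.21). Both lists hold more lower genes than the share over all genes, as do the lists of degradation genes and ATF4 targets that follow. None of them was tested as a list. Of 17 other degradation genes 13 were lower, with a median of -0.062, and 2 had an unadjusted p under 0.05: Vcp, the ATPase that pulls proteins from the membrane, at -0.29 (SE 0.12), and Vimp at -0.41 (SE 0.17). Of 33 other ATF4 targets 24 were lower, with a median of -0.14 and 1 at an unadjusted p under 0.05. Psph, of serine synthesis, had 0.61 (SE 0.22), and Eif4ebp1, a brake on translation, -0.42 (SE 0.21). Of 21 genes of stress sensing and cell death 11 were lower, with a median of -0.013 and 1 at an unadjusted p under 0.05. Bcl2l11, the gene of the death factor BIM, had 0.46 (SE 0.17), and Traf2, which binds activated IRE1, 0.36 (SE 0.18).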

How the data were processed

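Ribosome-depleted RNA was sequenced from 10 mice (TruSeq stranded kit, per the labels' protocols). The authors deposited 1 table of raw counts per gene. Novoalign and build mm10 are named in the submitters' processing notes, without versions. The sources used here name neither the annotation nor whether counting used strand. The series text calls both groups Villin:Cre-, and the sample labels, which give Villin:Cre+ for dIEC, were followed. Nothing says how mice shared litters or cages.

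Genes were kept by filterByExpr (12477 of 13932, 89.6%), scaled by TMM and tested with edgeR 4.0.16 (R 4.3.3, robust glmQLFit, glmQLFTest) with terms for sex and genotype. DESeq2 1.42.0 and limma 3.58.1 (voom) were alternatives. Log2 CPM used a prior count of 2. Permutations ran in Python 3.11.15. SE was taken as |log2 fold change| divided by the root of the F statistic. Scripts were tested on simulated data. Exon lengths and coordinates are from GENCODE M21 (GRCm38, the sequence of mm10). Values in every library are given for Hspa5, Xbp1, Atf4, Ddit3, Ern2 and, in each role group, the members with the smallest p for genotype and for sex. Of each other list the 2 genes with the smallest genotype p are named, and outside the members the 5 named genes with the highest r with Hspa5. Members, lists and alternatives were chosen with earlier results of these data known.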

Additional observations from a re-analysis of the deposited data

Results flagged for a closer look

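Within each genotype, a member's level in 1 library was set apart when its gap to the next library exceeded 0.71 of the group's range, Dixon's critical value for 5 samples. Of 64 groups (32 members in 2 genotypes) 6 met this, where chance gives about 3.2. Among dIEC libraries, dIEC 9 was set apart for Hspa5 (804.3 CPM, gap 0.962 of the range) and Pdia3 (432.2 CPM, 0.769). Among WT libraries, WT 8 was set apart for Dnajb11 (183.5 CPM, 0.722), Dnajc3 (227.6 CPM, 0.801) and Atf6 (105.0 CPM, 0.816), and WT 10, as the lowest, for Asns (9.497 CPM, 0.714). dIEC 9 and WT 8 are both female and highest in their genotype for these chaperones. dIEC 9 had the highest proliferation score of the 10 libraries, at 5.51, and WT 8 a score of 4.47. The part of the scores in these levels was not tested.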

How the results depend on the processing

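The count of members called for genotype and for the product of sex and genotype was 0 under every alternative run. The difference between branches stayed within 1 pooled SD of the gap in mean log2 CPM (0.44) under all 18. For sex, 6 members were called with the proliferation score as covariate and 0 under each other alternative. With 1 library left out, the median for genotype ran from -0.336 without WT 10 to -0.107 without WT 8, that for sex from 0.036 without WT 8 to 0.269 without dIEC 7, and that for the product from -0.259 without WT 10 to 0.268 without WT 8. The branch difference ran from -0.392 without WT 4 to -0.018 without WT 8. The median for sex was 0.473 with the goblet and Paneth score as covariate and 0.051 with the proliferation score and WT 8 left out, and the median for the product was 0.036 when scaled by library size only. The cause was not tested.

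Of the members' genotype values, 633 kept their sign and 39 did not. Dnajb9 changed sign by limma voom (0.17), in males alone (0.078), with the proliferation score (0.033), with the goblet and Paneth score (0.031), and with the proliferation score and WT 8 left out (0.0072). In males alone Ern1 (-0.13) and Syvn1 (-0.13) did, and with the proliferation score and WT 8 left out Ern1 (-0.034) and Syvn1 (-0.069). In females alone Ern2 (0.27), Atf6 (-0.022), Chac1 (0.65), Asns (0.14) and Edem1 (-0.036) did, by limma voom Ddit3 (0.034) and Sel1l (0.075), and with the goblet and Paneth score Sel1l (0.00055). With 1 library left out, the range crossed 0 for Atf6 (-0.00094 to 0.10), Chac1 (-0.49 to 0.065), Ddit3 (-0.34 to 0.019), Dnajb9 (-0.11 to 0.091), Edem1 (-0.056 to 0.18), Eif2ak3 (-0.092 to 0.36), Ern1 (-0.11 to 0.090), Ern2 (-0.40 to 0.019), Sel1l (-0.21 to 0.077), Syvn1 (-0.27 to 0.22) and Trib3 (-0.15 to 0.40). No paired analysis was run, because the labels state no pairing of mice. Mouse numbers are odd in dIEC and even in WT, and whether this order reflects a pairing is not given. The fit with the proliferation score and WT 8 left out, the correlations without WT 8 and those with the scores were added after seeing the data. Chac1, with as few as 7 counts, was not tested for sex within 1 genotype.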
